A study of Mus musculus with 20 samples.

Results

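DNA replication and nucleotide supply were followed through 42 mouse genes, out of 30265 genes in each count table. The genes were listed by function and matched by symbol, and each lay on exactly 1 Ensembl gene. They comprised 6 subunits of the origin recognition complex (Orc1 to Orc6), 3 genes of licensing control (Cdc6, Cdt1 and Gmnn), the 6 genes of the MCM2-7 helicase, 6 genes of helicase activation (Mcm10, Cdc45 and Gins1 to Gins4), 8 genes of primase and the replicative polymerases, 6 genes of the sliding clamp and its loader (Pcna and Rfc1 to Rfc5), 4 genes of single-strand binding and lagging-strand maturation (Rpa1, Rpa2, Fen1 and Lig1) and 3 genes of nucleotide supply (Rrm1, Rrm2 and Tyms). Polyadenylated RNA was read in 20 libraries. Of these, 4 came from mouse embryonic stem cells (ESCs) labelled as C57BL/6J, grown with LIF on irradiated embryonic fibroblast feeders, 2 overexpressing GFP and 2 overexpressing Klf5. The other 16 came from single preimplantation embryos at embryonic day 4.5 (E4.5), labelled as from C57BL/5J mice and cultured in KSOM with BSA, 10 given a scramble siRNA and 6 an siRNA to Klf5. Klf5 encodes a Krüppel-like zinc finger transcription factor, and the design asks how raising it in ESCs and lowering it in embryos alters transcripts. An embryo library holds all cells of 1 embryo, and in such bulk samples fewer cells of a type and less RNA per cell cannot be told apart. The labels do not say whether the ESC replicates were separate cultures, so their p-values measure only the spread between these libraries.

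Before each S phase, the origin recognition complex binds DNA and, with Cdc6 and Cdt1, loads the MCM2-7 ring that later becomes the replicative helicase. Geminin, encoded by Gmnn, binds Cdt1 and blocks repeated loading. Cdc45 and the GINS complex switch the ring on, primase and the polymerases copy the strands, PCNA holds the polymerases on DNA, and ribonucleotide reductase and thymidylate synthase supply deoxynucleotides. Transcription of many of these genes is raised before S phase by E2F factors, and mouse ESCs divide quickly with short gap phases.

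Libraries held 26775363 to 37482631 estimated counts in ESCs and 14701519 to 24939629 in embryos. Levels below are counts scaled to library size (CPM) with TMM factors, and differences are log2 fold changes with their standard errors from edgeR, whose p-values were adjusted over all genes tested by Benjamini and Hochberg's method. The coefficient of variation of the 42 genes had a median of 6.10% across the 2 GFP libraries and 34.4% across the 10 scramble embryos. In ESCs the pluripotency markers were present in every library (Pou5f1 2624 ± 117 CPM in GFP libraries, SD, n = 2), as were fibroblast collagens such as Col1a1 (398 ± 82.5 CPM), a gene of the feeder cell type. In embryos the share of mitochondrial counts ran from 4.34% to 18.5% in scramble libraries and from 2.45% to 10.3% in siRNA libraries. The labels' running numbers are lower for all scramble libraries than for all siRNA libraries, so siRNA and any effect of that order cannot be told apart.

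To show which short factor motifs lie at these genes, windows from 250 bases before to 50 after the start site were taken from RefSeq (GRCm38.p6), which matched 34 of the 42 genes. Exact letters were searched on both strands: TTTCCCGC, TTTGGCGC and TTTCGCGC for E2F, CCAAT for the CCAAT box, CCCCACCC and CCACACCC for Krüppel-like factors, and CCCCGCCC for Krüppel-like and SP factors. An E2F motif was found in 14 of the 34 genes (41.2%) against 2.12% of all 27025 genes in the table, and a CCAAT box in 22 genes (64.7%) against 41.1%. CCCCGCCC was found in 15 genes (44.1%) against 19.6%, whereas CCCCACCC was found in 1 gene, Cdc6 (2.94%), against 11.3%, and CCACACCC in 2 genes, Rrm1 and Tyms (5.88%), against 4.09%. Of the 5 MCM2-7 genes with a window, all 5 held a CCAAT box and 4 held an E2F motif, the exception being Mcm2. Below are 6 windows, of genes with small p-values in one of the comparisons and differing motif content, picked with their values known. The windows are Mcm2 at chr6:88898731-88899030, minus strand, Mcm3 at chr1:20820263-20820562, minus strand, Cdt1 at chr8:122567765-122568064, plus strand, Rrm1 at chr7:102441445-102441744, plus strand, Rrm2 at chr12:24708004-24708303, plus strand, and Tyms at chr5:30073576-30073875, minus strand. They are written 5′ to 3′ on the gene's strand with every motif match in capitals.
Mcm2: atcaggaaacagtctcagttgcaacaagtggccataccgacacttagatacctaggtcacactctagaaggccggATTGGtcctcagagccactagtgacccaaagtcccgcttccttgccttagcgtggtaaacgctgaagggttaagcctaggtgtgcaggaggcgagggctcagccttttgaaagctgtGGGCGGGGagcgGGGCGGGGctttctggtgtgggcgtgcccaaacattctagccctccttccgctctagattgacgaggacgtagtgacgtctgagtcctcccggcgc
Mcm3: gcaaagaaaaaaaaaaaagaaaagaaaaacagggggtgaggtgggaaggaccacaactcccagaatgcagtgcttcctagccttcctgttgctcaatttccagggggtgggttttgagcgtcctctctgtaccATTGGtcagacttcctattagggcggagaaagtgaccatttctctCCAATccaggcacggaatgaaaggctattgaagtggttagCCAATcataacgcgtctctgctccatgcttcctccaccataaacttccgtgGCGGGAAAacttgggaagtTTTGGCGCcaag
Cdt1: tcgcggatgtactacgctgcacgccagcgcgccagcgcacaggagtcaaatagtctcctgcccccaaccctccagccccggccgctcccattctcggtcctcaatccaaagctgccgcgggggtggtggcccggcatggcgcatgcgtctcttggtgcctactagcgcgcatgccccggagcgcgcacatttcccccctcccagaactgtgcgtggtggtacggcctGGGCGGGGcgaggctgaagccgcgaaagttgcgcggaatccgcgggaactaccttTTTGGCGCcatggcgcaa
Rrm1: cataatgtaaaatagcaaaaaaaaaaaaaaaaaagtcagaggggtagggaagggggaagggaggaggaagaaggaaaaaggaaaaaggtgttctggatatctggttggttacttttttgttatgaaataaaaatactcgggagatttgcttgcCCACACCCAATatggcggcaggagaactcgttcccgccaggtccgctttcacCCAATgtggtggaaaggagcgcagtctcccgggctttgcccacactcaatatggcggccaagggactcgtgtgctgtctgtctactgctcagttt
Rrm2: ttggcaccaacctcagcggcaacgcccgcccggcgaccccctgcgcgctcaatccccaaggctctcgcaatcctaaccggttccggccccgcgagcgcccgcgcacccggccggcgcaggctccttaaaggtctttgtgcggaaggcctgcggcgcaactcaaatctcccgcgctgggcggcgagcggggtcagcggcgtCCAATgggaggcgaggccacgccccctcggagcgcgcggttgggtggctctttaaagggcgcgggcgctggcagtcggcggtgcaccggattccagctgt
Tyms: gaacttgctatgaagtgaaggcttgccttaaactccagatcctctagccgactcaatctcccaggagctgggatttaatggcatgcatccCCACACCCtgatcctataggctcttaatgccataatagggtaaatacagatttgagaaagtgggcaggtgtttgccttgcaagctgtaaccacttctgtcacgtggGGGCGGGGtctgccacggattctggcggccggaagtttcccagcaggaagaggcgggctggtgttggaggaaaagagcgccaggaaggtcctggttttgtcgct
Mcm2 holds a CCAAT box and 2 copies of CCCCGCCC, all on the opposite strand. Mcm3 holds 2 E2F motifs, beginning at bases 19 and 38 after the start site, and 3 CCAAT boxes. Cdt1 holds an E2F motif beginning at base 32, and Rrm2 holds 1 CCAAT box only. In Rrm1 the CCACACCC match runs into a CCAAT box and shares letters with it. A match is a run of letters and not a measured binding site. Only these exact letters were searched, so a window without a match may still hold a variant of a motif.

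Klf5 itself was read first as a check of the labels. In ESCs it stood at 80.5 and 70.8 CPM in the GFP libraries and at 942 and 882 CPM in the Klf5 libraries, a 12.1-fold rise (log2 fold change 3.59 ± 0.137, edgeR adjusted p = 0.000323). In embryos it ran from 382 to 592 CPM with a median of 472 in the scramble group, and from 80.8 to 544 CPM with a median of 156 in the siRNA group (log2 fold change -1.07 ± 0.33, edgeR adjusted p = 0.0273). The groups overlapped because the embryo labelled Klf5 siRNA 1 stood at 544 CPM, within the scramble range, while the other siRNA embryos stood at 292 CPM or less. Without it the Klf5 difference was -1.56 (edgeR adjusted p = 0.0013), and without any one of siRNA embryos 2 to 5 it lost its call (edgeR adjusted p between 0.0509 and 0.0672). The call was also lost without siRNA embryos 2 and 4 together (-0.71, edgeR adjusted p = 0.131), with an offset for transcript length (-0.81, edgeR adjusted p = 0.0864) and with the mitochondrial share as a covariate (-1.09, edgeR adjusted p = 0.0885).

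In ESCs, overexpression of Klf5 moved no replication or nucleotide gene past the threshold. All 42 genes were tested and 0 were called by edgeR at an adjusted p of 0.05, where 2.78% of all 15968 genes were called (1.67% higher and 1.11% lower). DESeq2 and limma voom also called 0 of the 42, and 2 genes, Gins1 and Rrm2, had an unadjusted edgeR p below 0.05, beside 3710 of all 15968 genes. The all-gene count rests on single libraries, since 444 genes were called in all, 1 without the first GFP library and 998 without the second Klf5 library. Differences ran from -0.39 to 0.53 with a median of -0.03, beside -0.00 for all genes. In 7 of the 42 genes both Klf5 libraries lay above both GFP libraries, and in 7 both lay below, where 28.9% and 27.4% of all genes did so.

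**Figure D1:**
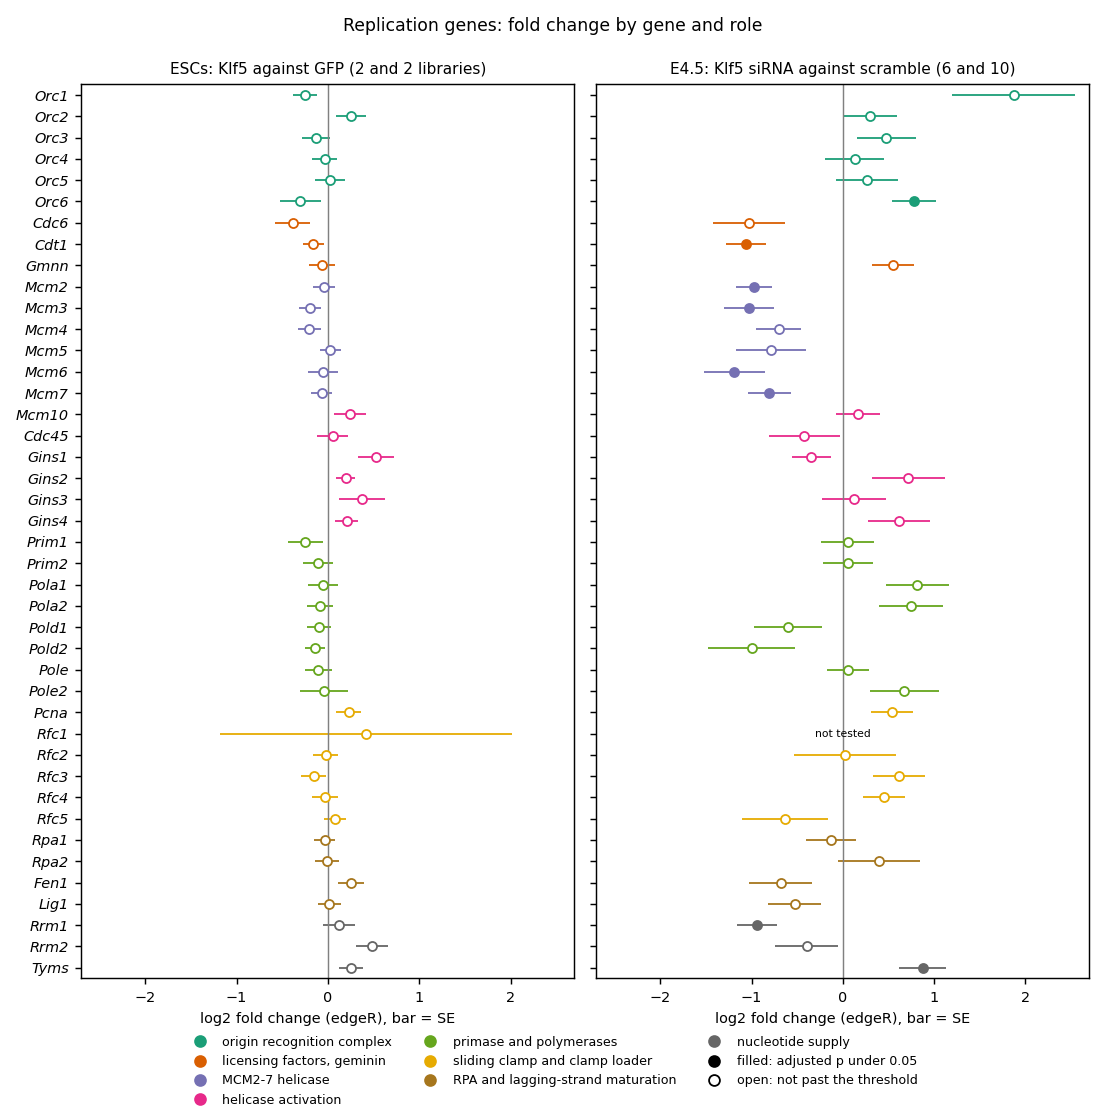
Log2 fold change of each gene with its standard error, by role, in ESCs (Klf5 against GFP) and in E4.5 embryos (Klf5 siRNA against scramble). Filled points passed an edgeR adjusted p of 0.05: none in ESCs, 2 higher and 6 lower in embryos, where all 6 MCM2-7 genes lie left of 0.

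Helicase activation and nucleotide supply held the largest positive ESC differences. Gins1, a subunit of the GINS ring, stood at 13.4 and 17.9 CPM in GFP libraries and at 25.4 and 19.9 CPM in Klf5 libraries. The groups did not overlap, but the difference of 0.53 ± 0.195 did not pass (edgeR adjusted p = 0.167). Rrm2, the regulated small subunit of ribonucleotide reductase, stood at 164 and 213 CPM in GFP libraries and at 299 and 228 CPM in Klf5 libraries. These groups also lay apart, with a difference of 0.48 ± 0.18 (edgeR adjusted p = 0.174). All 6 helicase activation genes had estimates above 0 (median 0.22), as did Rrm1 (0.12) and Tyms (0.26). Of these 9 genes, Gins1, Gins2, Gins4, Rrm2 and Tyms had both Klf5 libraries above both GFP libraries.

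For the clamp and for lagging-strand maturation the smallest p-values were those of Pcna and Fen1. Pcna, the sliding clamp, stood at 229.8 and 243 CPM in GFP libraries and at 309 and 245 CPM in Klf5 libraries (0.23 ± 0.138, edgeR adjusted p = 0.358). Fen1, the flap endonuclease that trims Okazaki fragments, stood at 76.8 and 75.0 CPM against 102 and 79.7 CPM (0.26 ± 0.14, edgeR adjusted p = 0.315). In both genes the 2 groups lay apart only narrowly, since the second Klf5 library stood close to the GFP libraries. Pcna has pseudogene copies in the tables, Pcna-ps1 and Pcna-ps2, that could share its reads. Rfc1, the large subunit of the clamp loader, stood at 2.07 and 2.09 CPM in GFP libraries and at 5.44 and 0.106 CPM in Klf5 libraries. The 2 Klf5 libraries thus lay on either side of the GFP libraries. It was called lower by edgeR without the first Klf5 library and higher without the second, fits in which the spread comes from the 2 GFP libraries alone and the lone Klf5 library is assumed to vary like them. No label names the transcript annotation behind the counts, so a low Rfc1 value cannot be read as a low level of its RNA.

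Licensing genes and polymerases lay slightly on the other side. Cdc6, the ATPase that helps load the ring, stood at 40.0 and 37.1 CPM in GFP libraries and at 35.1 and 23.9 CPM in Klf5 libraries (-0.39 ± 0.193, edgeR adjusted p = 0.278). Orc1, the subunit that recruits Cdc6, stood at 43.1 and 46.5 CPM against 40.0 and 35.5 CPM (-0.25 ± 0.129, edgeR adjusted p = 0.294). Mcm3 stood at 598 and 536 CPM against 520 and 470 CPM (-0.20 ± 0.125, edgeR adjusted p = 0.383). In these 3 genes each Klf5 library lay below each GFP library, and the gap between the groups was smaller than the gap between the libraries within either group. Prim1, the catalytic primase subunit, overlapped between the groups at 19.3 and 24.0 CPM against 21.1 and 15.6 CPM (-0.25 ± 0.195, edgeR adjusted p = 0.484). All 8 primase and polymerase genes had estimates below 0, from -0.25 to -0.04, and 5 of the 6 MCM2-7 genes did, from -0.20 to 0.03. Over all members the level of the second Klf5 library lay 0.21 below the GFP mean on the log2 scale and that of the first lay 0.16 above it. These means include Rfc1, at -3.69 in the second Klf5 library and 1.36 in the first on that scale. Rfc1 thus moved both levels in the direction given, and levels without it were not computed. The median difference was -0.12 without the first Klf5 library and 0.09 without the second.

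In E4.5 embryos Mcm2, Mcm3, Mcm6 and Mcm7 of the helicase, Cdt1 and Rrm1 were lower in the Klf5 siRNA group, and Orc6 and Tyms were higher. Of the 42 genes 41 were tested, since Rfc1 was at 0 in all but 2 embryos. edgeR called 6 lower and 2 higher, where 7.74% of all 12385 genes were called lower and 12.0% higher (19.8% in either direction). The total of 8 is near that background. At an unadjusted p below 0.05 there were 17 of the 41, beside 4112 of all 12385 genes. The median difference of the 41 genes was 0.05, beside -0.01 for all genes, with 23 estimates above 0 and 18 below. All 8 calls were also made without the embryo labelled Klf5 siRNA 1, where 7 members were called lower and 3 higher. In a test against a 1.5-fold change none of the 8 passed (edgeR adjusted p from 0.057 for Cdt1 to 0.299 for Orc6).

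**Figure D2:**
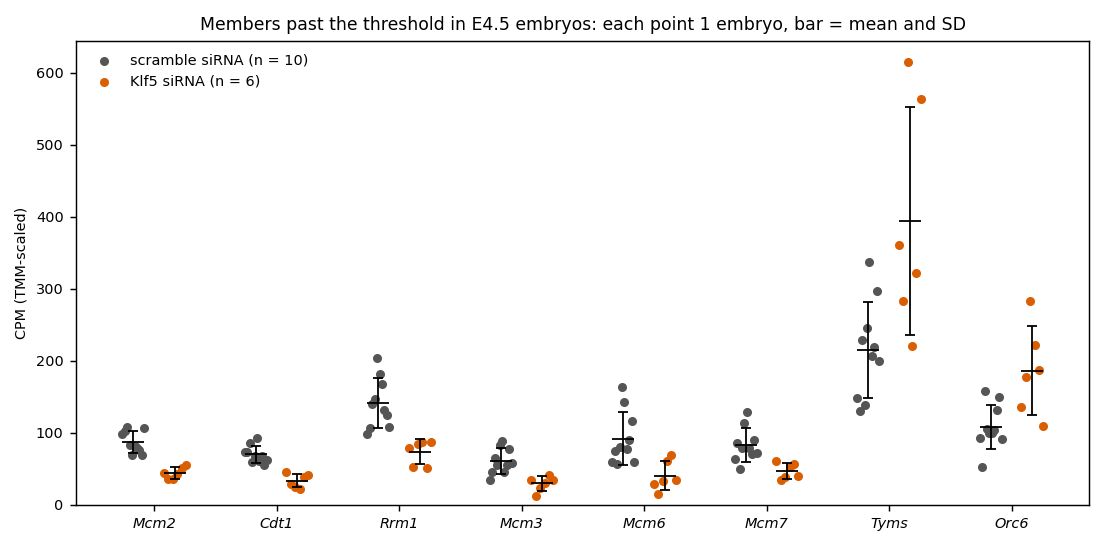
CPM of the 8 genes past the threshold in each embryo (linear axis, 1 point per embryo, bars for the group mean and SD). For Mcm2, Cdt1 and Rrm1 every siRNA embryo lies below every scramble embryo, while Orc6 and Tyms overlap between the groups.

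All 6 MCM2-7 genes had lower estimates in siRNA embryos, from -1.19 to -0.70 with a median of -0.89, and 4 of the 6 passed. The window of Mcm2 (chromosome 6, 88883474 to 88898780, GRCm38) above holds none of the exact E2F letters searched. Mcm2 ran from 68.8 to 107 CPM in scramble embryos with a median of 82.5, and from 35.7 to 55.7 CPM with a median of 43.9 in siRNA embryos. No siRNA embryo reached the lowest scramble embryo. Its mean fell from 87.4 ± 15.1 (SD, n = 10) to 44.5 ± 8.09 CPM (SD, n = 6), a log2 fold change of -0.97 ± 0.20 (edgeR adjusted p = 0.00217). Mcm3 (chromosome 1, 20802968 to 20820312) ran from 34.5 to 89.0 CPM with a median of 56.3 against 12.7 to 41.99 CPM with a median of 32.7. Only scramble embryo 1 lay within the siRNA range, and the difference was -1.03 ± 0.275 (edgeR adjusted p = 0.0128).

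Mcm6 (chromosome 1, 128331590 to 128359664) showed the largest helicase difference. It ran from 56.0 to 163 CPM with a median of 78.9 in scramble embryos and from 15.4 to 69.0 CPM with a median of 33.5 in siRNA embryos. Scramble embryos 5 and 6 were the highest at 163 and 143 CPM, and siRNA embryos 4 and 5 lay within the scramble range, with a difference of -1.19 ± 0.33 (edgeR adjusted p = 0.0156). Mcm7 (chromosome 5, 138164583 to 138172422) ran from 49.1 to 128 CPM with a median of 78.7 against 34.1 to 61.0 CPM with a median of 46.8 (-0.81 ± 0.235, edgeR adjusted p = 0.0200). Its siRNA embryos 1, 4 and 5 stood within the scramble range, and its call was lost in 6 of 31 alternatives. Mcm4 had a difference of -0.70 ± 0.25 (edgeR adjusted p = 0.0523) and Mcm5, the least abundant of the 6 per kb, one of -0.78 ± 0.383 (edgeR adjusted p = 0.158).

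Averaged over the 6 genes on the log2 scale, the helicase level lay between -0.17 and 0.29 in scramble embryos relative to their mean and between -1.59 and -0.55 in siRNA embryos, so every siRNA embryo lay below every scramble embryo. The embryo labelled Klf5 siRNA 1, whose Klf5 was at the control level, stood at -0.87. Per kb of the longest coding transcript, the 6 genes ran from 6.25 to 28.0 CPM in scramble embryos and from 30.7 to 217 CPM in GFP ESCs, values from tables that were scaled separately and libraries made with different kits. In both, Mcm5 was the lowest of the 6.

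**Figure D3:**
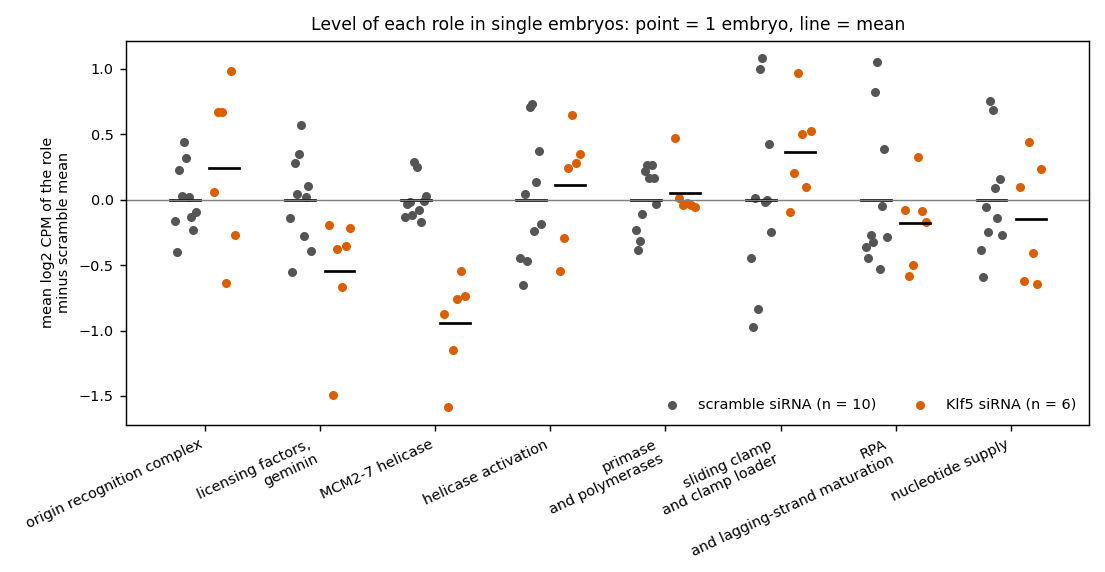
Mean log2 CPM of each role in each embryo, relative to the scramble mean (points are embryos, lines are group means). The groups lie apart for MCM2-7 only, at -0.17 to 0.29 against -1.59 to -0.55, and overlap for the other 7 roles.

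Of the 3 licensing genes Cdt1 alone passed. Cdt1 (chromosome 8, 122568015 to 122573554) ran from 55.9 to 92.8 CPM with a median of 68.0 in scramble embryos and from 22.5 to 45.1 CPM with a median of 34.2 in siRNA embryos. The ranges did not overlap, which held below the control range for 1.91% of all genes and for 3 of the 41 tested here (Cdt1, Mcm2 and Rrm1), while 0 of the 41 lay wholly above it, against 2.91% of all genes. The mean of Cdt1 fell from 70.0 ± 11.8 (SD, n = 10) to 33.5 ± 9.51 CPM (SD, n = 6), a difference of -1.06 ± 0.22 (edgeR adjusted p = 0.00233). Cdt1 lies wholly within the predicted gene Gm20388 on the same strand, so the 2 could share reads. The sources used here do not say whether counting used strand, and Mcm7 and Orc6 share some bases with neighbours on the other strand. Cdc6 ran from 27.2 to 112 CPM against 5.31 to 44.7 CPM (-1.02 ± 0.394, edgeR adjusted p = 0.0733). Gmnn, the inhibitor, ran from 114 to 326 CPM against 207 to 374 CPM (0.55 ± 0.228, edgeR adjusted p = 0.098), and its estimate was -0.07 with an offset for transcript length. Within each embryo the ratio of Gmnn to Cdt1 CPM lay between 1.56 and 4.82 in the scramble group and between 5.32 and 16.6 in the siRNA group. The ratio was chosen after the values were seen and carries no test.

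Nucleotide supply held calls in both directions. Rrm1 (chromosome 7, 102441695 to 102469771), the large subunit of ribonucleotide reductase, ran from 98.6 to 204 CPM with a median of 136 in scramble embryos and from 50.7 to 87.6 CPM with a median of 81.1 in siRNA embryos. The groups did not overlap, and the mean fell from 141 ± 34.8 (SD, n = 10) to 73.4 ± 17.2 CPM (SD, n = 6), a difference of -0.94 ± 0.222 (edgeR adjusted p = 0.00567). Tyms (chromosome 5, 30058202 to 30073617), which makes thymidylate, ran from 131 to 337 CPM with a median of 212 against 220.1 to 614 CPM with a median of 342. Tyms rose by 0.87 ± 0.256 (edgeR adjusted p = 0.0209), but the groups overlapped. The Tyms call was lost in 6 of 31 alternatives, among them without siRNA embryo 3 (edgeR adjusted p = 0.0736) or 6 (0.0642). Rrm2, the small reductase subunit, had a difference of -0.40 ± 0.343 (edgeR adjusted p = 0.448), with scramble embryo 5 at 916 CPM and embryo 6 at 643 CPM above all others. The ratio of Tyms to Rrm1 CPM lay between 0.950 and 2.38 in scramble embryos and between 2.51 and 7.34 in siRNA embryos, a ratio also chosen after the values were seen. Other ratios taken overlapped between scramble and siRNA embryos. Rrm2 to Rrm1 ran from 1.88 to 4.49 against 2.40 to 5.48, and Orc6 to Mcm2 from 0.514 to 2.18 against 1.97 to 7.84.

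Of the 6 origin recognition genes 1 passed, and the estimates had a median of 0.39. All 6 were above 0, but Orc1 (-0.14) and Orc2 (-0.22) turned below 0 without siRNA embryo 5, Orc5 (-0.22) without siRNA embryo 3 and Orc4 (-0.20) without siRNA embryo 1. Their mean log2 level lay below the scramble mean in siRNA embryos 4 (-0.63) and 6 (-0.27). Orc6 (chromosome 8, 85299632 to 85308278), the smallest subunit, ran from 52.9 to 158 CPM with a median of 102 in scramble embryos and from 109.8 to 283 CPM with a median of 182 in siRNA embryos. The ranges overlapped, with a rise of 0.78 ± 0.241 (edgeR adjusted p = 0.0281). The Orc6 call was lost in 11 of 31 alternatives. Among these were fits without siRNA embryo 3 (edgeR adjusted p = 0.0966) or 4 (0.063) and with no filter on low counts (0.0652). Orc1 had the largest estimate, 1.87 ± 0.67 (edgeR adjusted p = 0.0548). Its siRNA embryo 5 stood at 161 CPM, while the other 5 siRNA embryos ran from 1.12 to 16.0 CPM, close to the scramble range of 3.80 to 19.3 CPM. Orc2 was also highest in that embryo, at 173 CPM, against 76.4 CPM or less in every other embryo.

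Among helicase activation, polymerase, clamp and lagging-strand genes none of the 23 tested passed. Gins4 ran from 44.2 to 184 CPM against 72.3 to 191 CPM (0.62 ± 0.339, edgeR adjusted p = 0.212). Pola1, the catalytic subunit of polymerase alpha, ran from 23.4 to 89.8 CPM against 39.0 to 168 CPM (0.82 ± 0.341, edgeR adjusted p = 0.0986). Both genes overlapped widely between the groups. Pcna ran from 101 to 274 CPM against 218 to 358 CPM (0.54 ± 0.227, edgeR adjusted p = 0.101), and Fen1 from 18.1 to 75.5 CPM against 11.1 to 36.8 CPM (-0.68 ± 0.346, edgeR adjusted p = 0.175). The lowest siRNA embryo for Pcna stood above the scramble median of 194 CPM. Differences of the other genes in these roles ran from -0.997 for Pold2 to 0.75 for Pola2. Rfc1 was read in scramble embryo 3 at 3.97 CPM and in siRNA embryo 3 at 8.51 CPM and was at 0 in the other 14. A 0 allows up to 0.120 to 0.204 CPM per library (3 counts, counting error only). That bound was taken on library totals without the TMM factors used for the other CPM.

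**Figure D4:**
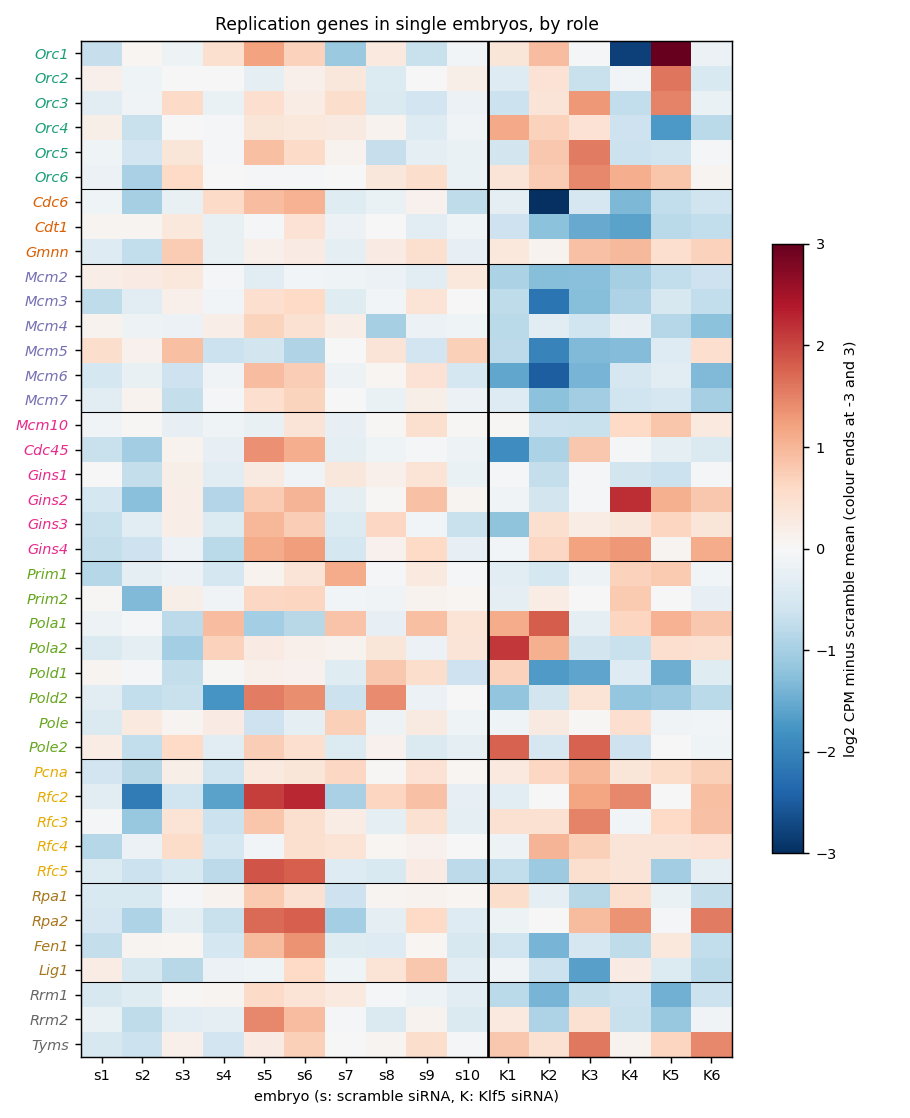
Log2 CPM of each gene in each embryo relative to the scramble mean, genes ordered by role and colour cut at -3 and 3. The MCM2-7 block is low across the siRNA embryos, and scramble embryos 5 and 6 are high in Rfc2, Rfc5 and Rpa2.

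Scramble embryos 5 and 6 stood apart from the other controls. Rfc5 stood at 174 and 163 CPM in them and at 26.9 to 55.2 CPM in the other 8, and Rpa2 at 193 and 207 CPM against 29.2 to 90.2 CPM. Rfc2 stood at 145 and 167 CPM against 7.99 to 63.9 CPM. These 2 embryos had the lowest mitochondrial shares of the scramble group, 4.34% and 5.48%, and the largest totals, 24939629 and 24859788 counts, and the part of either in these levels was not tested. Without both embryos 6 members were called lower and 4 higher, among them Gins4 (0.97, edgeR adjusted p = 0.0168), and Orc6 was lost (0.70, edgeR adjusted p = 0.0562). With the mitochondrial share as a covariate 12 members were called lower and 1 higher, Pola1 (1.36, edgeR adjusted p = 0.027), the median moved to -0.36, and Tyms (0.35, edgeR adjusted p = 0.442) and Orc6 (0.64, edgeR adjusted p = 0.175) were lost. All 4 MCM2-7 calls were also made without scramble embryos 5 and 6. Without siRNA embryos 2 and 4, Mcm7 (-0.76, edgeR adjusted p = 0.0658) and Orc6 (0.74, edgeR adjusted p = 0.0833) lost their calls.

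Of 30 further fork and initiation genes, 2 rose and 2 fell, with a median of -0.23, where 12.0% of all genes rose and 7.74% fell. Pole4 (1.31 ± 0.201, edgeR adjusted p = 0.000261) and Pole3 (1.28 ± 0.21, edgeR adjusted p = 0.000412), the small accessory subunits of polymerase epsilon, rose with no overlap between groups, from 98.2 ± 24.5 to 243 ± 53.8 CPM and from 58.8 ± 11.7 to 143 ± 42.2 CPM (SD, n = 10 and 6). Mcm8, a helicase of homologous recombination, fell by 1.29 (SE 0.288, edgeR adjusted p = 0.0039), and Timeless, a fork protection factor, fell by 1.07 (SE 0.321, edgeR adjusted p = 0.0241). The Timeless call was lost in 7 of 31 alternatives. Of 16 other nucleotide supply genes, 4 rose and 2 fell, with a median of 0.37. Dctpp1 and Nme1, which degrade and make nucleoside triphosphates, rose by 1.33 ± 0.223 and 1.23 ± 0.22, and Samhd1, a deoxynucleotide triphosphohydrolase, by 2.26 ± 0.461. Shmt1, a folate enzyme that feeds thymidylate synthesis, fell by 2.06 (SE 0.402, edgeR adjusted p = 0.00155), from 54.2 ± 22.6 to 12.98 ± 7.68 CPM.

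Among the E2F and RB family, 12 of 13 were tested, 0 were called higher and 2 lower, with a median of -0.55. The pocket protein Rbl1 fell from 12.3 ± 2.19 to 3.58 ± 1.63 CPM with no overlap (-1.77 ± 0.328, edgeR adjusted p = 0.00108), and E2f5 fell by 1.44 (SE 0.455, edgeR adjusted p = 0.0309). The E2f5 call was lost in 11 of 31 alternatives, among them without scramble embryo 3 or any one of siRNA embryos 1, 4, 5 and 6 (edgeR adjusted p between 0.0563 and 0.065), and with the mitochondrial share as a covariate the difference was -0.60 (edgeR adjusted p = 0.491). Of the 8 members called in embryos, Cdt1, Mcm3, Mcm6 and Mcm7 hold an exact match to the E2F letters searched, and Mcm2, Rrm1, Orc6 and Tyms do not. Variants of the motif were not searched, so this does not divide the genes by presence of an E2F site. E2f1, an activator of replication genes, stood at 10.4 ± 5.35 and 11.8 ± 7.67 CPM (0.18 ± 0.399, edgeR adjusted p = 0.789). Of 22 mitosis genes 3 rose and 7 fell, with a median of -0.52. Birc5 (1.37 ± 0.211), Ube2c (1.11 ± 0.232) and Cdk1 (0.89 ± 0.208) rose, and the checkpoint kinase Bub1 fell by 1.41 (SE 0.314). With the mitochondrial share as a covariate Bub1 (-0.65, edgeR adjusted p = 0.0895) and Cdk1 (0.77, edgeR adjusted p = 0.0511) lost their calls. In ESCs edgeR called 0 genes of these 4 lists, which held 5, 4, 2 and 4 genes with an unadjusted p below 0.05 in the order given, beside the 3710 of all 15968 genes. The smallest p-values there were those of Umps (0.64, edgeR adjusted p = 0.0539), E2f2 (1.34, 0.0601), Atad5 (-0.69, 0.0814) and Plk1 (0.40, 0.102), all 4 of which DESeq2 called among 1438 genes in all.

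Cell type markers were read in the same comparisons, beside 12.0% of all genes called higher and 7.74% lower in embryos. In ESCs these shares were 1.67% and 1.11%. In embryos 9 of 12 trophectoderm markers fell, their summed level running from 2479 to 9156 CPM in scramble and from 236 to 2629 CPM in siRNA embryos. Of 10 primitive endoderm markers 2 fell (summed 477 to 838 against 242 to 632 CPM), and 9 had estimates below 0, with a median of -1.23. Of 10 pluripotency markers 2 rose (summed 602 to 875 against 743 to 1116 CPM), but 6 had estimates below 0 and the median was -0.19. The mean log2 level of these 10 overlapped between the groups, at -0.49 to 0.57 in scramble and -0.24 to 0.37 in siRNA embryos. Both of the 2 fibroblast markers tested of 12, Thy1 and Vim, rose from low levels (all 12 summed 1.87 to 19.1 against 3.72 to 161 CPM), with Lum at 0 in every embryo. The 161 CPM was that of siRNA embryo 5, and the next highest siRNA embryo, 4, stood at 25.1 CPM. The filter on low counts that left 2 of the 12 used these same embryos. No marker of the other 3 lists was at 0 in every embryo. In ESCs 3 of 10 primitive endoderm markers rose (summed 1127 to 1666 against 1661 to 4577 CPM), 1 of 12 trophectoderm markers fell (1638 to 2824 against 566 to 991 CPM), 1 of 11 fibroblast markers tested rose (1851 to 1926 against 2211 to 2366 CPM), and 0 of 10 pluripotency markers were called (5387 to 5540 against 6244 to 6539 CPM). All 10 primitive endoderm estimates in ESCs were above 0, with a median of 2.00. The part of these markers in the replication genes' levels was not tested.

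Embryo differences also went with transcript length. Over 12292 genes the Spearman correlation of length and log2 fold change was -0.31, a description over genes that share libraries, and over the 41 members it was -0.26. In ESCs it was 0.11 over all genes and 0.04 over the members. When genes were split into 10 equal bins by length, the shortest bin (median 800.5 bases) had a median embryo difference of 0.90 and the longest bin -0.34. Orc6, at 1466 bases, lay close to the median of 0.57 for the bin centred on 1355 bases, whereas Tyms, at 3163 bases, lay far above the -0.25 of the bin centred on 3179 bases. These are lengths of the longest coding transcript, with 7 transcripts annotated for Orc6 and 9 for Tyms. Which of them were expressed was not tested, and a shorter form would place a gene in another bin. The offset used the same lengths. After an offset for each library's length trend, Mcm2, Mcm3, Cdt1 and Tyms kept their calls. Rrm1 (-0.63, edgeR adjusted p = 0.0712), Mcm6 (-0.89, 0.0976), Mcm7 (-0.57, 0.0778) and Orc6 (0.37, 0.304) lost theirs, and Pola1 gained one (1.18, edgeR adjusted p = 0.0119). Of the other pathway genes named above, Timeless (-0.79, edgeR adjusted p = 0.11) and Dctpp1 (0.48, edgeR adjusted p = 0.0906) lost theirs.

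**Figure D5:**
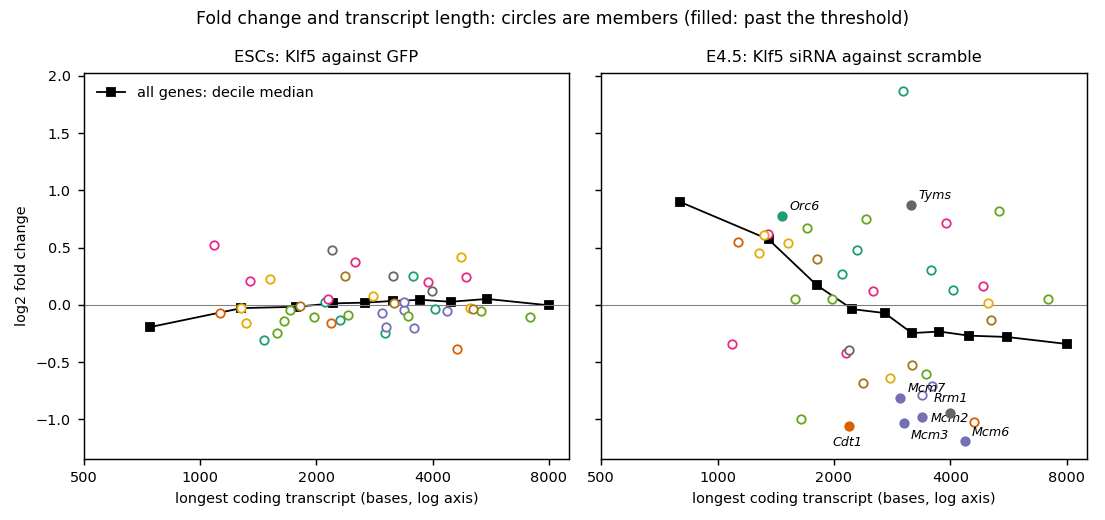
Log2 fold change against the length of the longest coding transcript (log axis) for the 42 ESC and 41 embryo genes, coloured by role as in the plot of folds by role, with medians of all genes by length bin (squares). The embryo medians run from 0.90 for the shortest bin to -0.34 for the longest, and the MCM2-7 genes lie below that line.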

How the data were processed

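The labels' protocols name TruSeq v2 reagents for the ESC libraries, SMARTseq-V4 for embryo cDNA and NEBNext Ultra II for library construction throughout. The authors deposited estimated counts (expected counts, unscaled) for each Ensembl gene. The submitters' processing notes give kallisto 0.46 and mm10. The sources used here do not say how transcripts were summed to genes or which annotation was used. Symbols, positions and lengths came from GENCODE M21.

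Counts were rounded to whole numbers (no total moved by over 0.000756%), filtered with filterByExpr (lowest count 10) and scaled with TMM. Robust quasi-likelihood tests in edgeR 4.0.16 ran across all genes, 2 against 2 in ESCs and 10 against 6 in embryos. The common biological coefficient of variation was 0.163 in ESCs and 0.739 in embryos, and 2 and 14 residual degrees of freedom remained. A role's level is the mean log2 CPM of its genes (prior count 2) minus the control mean. The scripts were tested on simulated data. The 2 most alike libraries of a group differed far beyond sampling noise (chi-square over its degrees of freedom 21.1 in ESCs and 71.3 in embryos).

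The 42 genes and all lists were chosen with earlier results of these data known. Values were given in full for Klf5, for members with an adjusted p below 0.05, and for the member with the smallest p in each role without one. From each other list up to 4 genes past the threshold, or the gene with the smallest p, were named. E2f1, Cdc6, Gmnn, Mcm4, Mcm5, Orc1, Orc2, Orc4, Orc5, Rrm2 in embryos, Tyms and Rrm1 in ESCs, and the genes that set scramble embryos 5 and 6 apart were named after their values were seen.

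There were 14 alternatives in ESCs and 31 in embryos: RLE and upper quartile scaling, DESeq2 1.42.0, limma 3.58.1 voom with and without quality weights, no filter or one at 5 CPM, a 1.5-fold threshold, a length offset (lowess span 0.3), replicate numbers as a block, covariates, and libraries left out. The crossed ESC pairing was chosen after seeing the data.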

Additional observations from a re-analysis of the deposited data

Results flagged for a closer look

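Dixon's test for a single outlying embryo was run on 104 sets of values (each gene's CPM and the role levels, in both embryo groups), and 12 values stood far from the rest of their group. For independent values with a normal spread, chance gives about 1 in 20 groups. CPM are on a linear scale here and the role levels reuse the same genes, so the 12 cannot be set against that share. Rfc1, at 0 in all but 1 embryo of each group, is flagged by construction. Of the 12 values, 10 lay in the Klf5 siRNA group and 2 in the scramble group.

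Origin recognition genes stood out in siRNA embryo 5, with Orc1 at 160.8 CPM (group median 9.41) and Orc2 at 172.9 CPM (median 48.2). The GINS subunits stood out in 2 other siRNA embryos, Gins2 high in embryo 4 at 210.8 CPM (median 61.7) and Gins3 low in embryo 1 at 3.608 CPM (median 10.7). Prim2, the large primase subunit, was high in siRNA embryo 4 at 37.44 CPM (median 21.7), and Prim1, its partner, was high in scramble embryo 7 at 129.7 CPM (median 57.9).

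Polymerase delta subunits were high in different siRNA embryos, Pold1 in embryo 1 at 25.34 CPM (median 8.87) and Pold2 in embryo 3 at 28.83 CPM (median 11.2). The level of all primase and polymerase genes was high in siRNA embryo 1, at 0.4706 on the log2 scale above the scramble mean (group median -0.03), the embryo whose Klf5 was at the control level. The level of Cdc6, Cdt1 and Gmnn was low in siRNA embryo 2, at -1.49 (group median -0.37), where Cdc6 stood at 5.31 CPM. Rfc1 was read only in scramble embryo 3, at 3.967 CPM, and siRNA embryo 3, at 8.514 CPM, with all other embryos at 0.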

How the results depend on the processing

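In ESCs 0 members were called in either direction under scaling, filter, DESeq2, voom, 1.5-fold, length offset and replicate block alternatives. Leaving out 1 library gave 0 to 1 higher and 0 to 1 lower, with a median between -0.12 and 0.0892. In ESCs the correlation of deviations was -0.11 for same-numbered libraries. With 2 libraries in each group the crossed value is then fixed at 0.11, so it cannot show whether the numbers pair libraries. A crossed pairing replicate block gave 2 higher and 0 lower. All-gene calls ran from 1 (1.5-fold test, and without GFP replicate 1) to 1475 (crossed pairing), against 444, and were 169 to 998 without another library.

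In embryos the main counts were 6 lower, 4 of them MCM2-7 genes, and 2 higher. The test against a 1.5-fold change gave 0 lower, 0 MCM2-7 and 0 higher. With no filter on low counts 1 was higher. With the mitochondrial percent as covariate 12 were lower and 1 higher, the median was -0.36 and Gins4 turned to -0.12. Without scramble embryos 5 and 6, 4 were higher. MCM2-7 calls fell to 2 with the length offset and to 2 with genes with a count as covariate. Leaving out 1 embryo gave 1 to 3 higher, 6 to 7 lower, 4 to 5 MCM2-7 genes lower and a median between -0.12 and 0.14. The cause of these moves was not tested. DESeq2 moved the median of all embryo genes from -0.01 to 0.10 and voom to -0.12.

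Same-numbered embryos did not deviate together (correlations -0.117 to 0.108), which cannot show whether the number marks a shared step of handling. The replicate block on 12 embryos gave 2 lower, 1 of MCM2-7, and 0 higher, with 902 genes called in all. The same 12 embryos with no replicate block gave 0 higher, 6 lower and 1423 in all, against 2447 with 16. Rfc1, at 0 in all but 2 embryos, did not pass the filter there, and with no filter it was not called (edgeR adjusted p = 0.524).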
